A study of Mus musculus with 12 samples.

Results

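Lysosomal enzymes and membrane proteins were followed in cultured mouse fibroblasts given an inhibitor of the MYST histone acetyltransferases. The genes, and the other lists read below, were named from the known biology of the lysosome, but with earlier results of these data known. Shares that pass among them are therefore a description and no test of the lists. The set is 40 genes of a table of 27179. It holds 13 proteases (Ctsa, Ctsb, Ctsc, Ctsd, Ctsf, Ctsh, Ctsk, Ctsl, Ctso, Ctss, Ctsz, Lgmn and Tpp1) and 13 glycosidases and sulfatases (Glb1, Gaa, Gla, Gusb, Hexa, Idua, Ids, Manba, Man2b1, Naglu, Neu1, Arsa and Arsb). It also holds 6 lipid enzymes and carriers (Asah1, Naaa, Lipa, Psap, Smpd1 and Npc2), 6 membrane proteins (Npc1, Lamp1, Lamp2, Cd63, Scarb2 and Mcoln1) and 2 transcription factors of the TFEB family (Tfeb and Tfe3). Of these, 39 had enough reads to be tested; Ctss, a cathepsin best known from antigen-presenting cells, had 21 reads in 12 libraries and was not.

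All cells were wild-type C57BL/6 embryonic fibroblasts, labelled female, taken at embryonic day 13.5 and grown with 10% fetal bovine serum in 3% oxygen and 5% carbon dioxide. Every culture received a compound at 10 µM: either WM-8014, labelled a MYST inhibitor, or WM-2474, labelled its inactive control. Messenger RNA was sequenced after 96 or 240 h from cultures numbered 5, 6 and 7, which makes 4 groups of 3 libraries. Untreated cells were not analysed here, and the comparison asks how the inhibitor differs from the inactive compound at each time and whether that difference changes with time. The p-values measure the spread between these cultures.

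Lysosomes are acidic compartments in which hydrolases break down protein, glycan and lipid delivered by endocytosis and autophagy. Most hydrolases are made in the endoplasmic reticulum, tagged with mannose 6-phosphate and sorted to the lysosome, whose limiting membrane carries heavily glycosylated proteins, channels and sterol transporters. TFEB and its relative TFE3 can switch on many of these genes together through a short promoter element, and lysosomal enzymes, β-galactosidase among them, are known to accumulate in senescent fibroblasts.

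Libraries held 10147466 to 45903190 reads, so 3 reads correspond to 0.0654 to 0.296 CPM, a limit of counting alone. CPM use library totals adjusted by TMM, so that a gene can be compared between libraries. Triplets of values are cultures 5, 6 and 7 in that order, and means are given ± SD (n = 3). The fibroblast markers summed to between 23400 and 40200 CPM over all libraries. Of these 11 markers, 1 was higher (Col1a2, log2 0.19) and 2 lower (Twist2 -0.29, Twist1 -0.19) with WM-8014 at 96 h. At 240 h, 1 was higher (Vim, 0.14) and 4 lower (Lum -2.29, Twist2 -0.44, Pdgfra -0.43 and Twist1 -0.18). The others did not pass at 240 h: Col1a1 (0.04), Col1a2 (0.01), Pdgfrb (0.02), Thy1 (-0.07), Col3a1 (-0.22) and Dcn (-0.61). Over all genes tested, 22.8% passed in either direction at 96 h and 42.6% at 240 h. Of 4 endothelial markers, 3 were tested, with 1 lower and 0 higher with WM-8014 at each time. At 96 h this was Kdr (-0.96, from 2.46 ± 0.58 to 1.31 ± 0.39 CPM). Of 4 epithelial markers, only Krt18 was tested. It was lower at 96 h (-1.33, from 2.02 ± 0.64 to 0.815 ± 0.0034 CPM) and did not pass at 240 h. Kdr and Krt18 both stood at low levels. Dcstamp and Calcr, which mark osteoclasts, had no reads. A list of 16 macrophage and leukocyte markers summed to 7.89 to 9.1 CPM with WM-2474 and 11.7 to 12.3 CPM with WM-8014 at 96 h, and to 4.21 to 6.81 and 10.6 to 11.3 CPM at 240 h. That sum was thus higher with WM-8014 at both times, where 2 of the 3 tested markers passed as higher at 240 h and 1 at 96 h, with Csf1r at 2.24 ± 0.71 against 5.42 ± 0.8 CPM and Ptprc, the pan-leukocyte marker, at 0.104 ± 0.18 against 0.0423 ± 0.037 CPM at 240 h. C1qb had no reads with WM-8014, and Tyrobp and C1qc had none with WM-2474 at 240 h. The part of all these markers in the results was not tested. In bulk RNA, fewer cells of a type and less RNA per cell cannot be told apart. The libraries of WM-2474 at 96 h from cultures 6 and 7 stood apart from the other 10 in Stag3 (1.81 and 2.5 against 22.9 to 37.5 CPM) and Misp3 (0.724 and 0.943 against 79.9 to 285 CPM), genes chosen after their values were seen. Results at 96 h are therefore also given without them. The label "female" did not match the reads: Ddx3y, on the Y chromosome, was at 96.3 to 124 CPM in every library, and Xist had 0 to 4 reads.

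Promoter sequences are shown first, because factors of the TFEB family are known to bind an element found in promoters of lysosomal genes. RefSeq (assembly GRCm38.p6, the build called mm10) gave 42 windows for 36 of the 40 genes. Each ran from 250 bases before to 50 bases after a transcript start. A gene with more than 1 start was counted if any of its windows held a match. The core CACGTG, which reads the same on both strands, stood in the windows of 12 of these 36 genes (33.3%), against 8.09% of 27025 genes with windows. The longer palindrome TCACGTGA, which contains that core, stood in 4 of 36 (11.1%) against 1.12%. Those 4 were Ctsa, Ctsd, Gla and Mcoln1, and they are shown with 30 bases each, 5′ to 3′ on the gene's strand, the palindrome in capitals:
Ctsd, chr7:142387908-142387937 (minus strand): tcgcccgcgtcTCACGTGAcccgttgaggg
Ctsa, chr2:164833749-164833778 (plus strand): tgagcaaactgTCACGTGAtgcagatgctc
Ctsa, chr2:164833766-164833795 (plus strand): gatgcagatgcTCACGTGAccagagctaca
Gla, chrX:134601215-134601244 (minus strand): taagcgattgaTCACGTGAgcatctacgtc
Gla, chrX:134601182-134601211 (minus strand): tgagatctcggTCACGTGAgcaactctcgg
Mcoln1, chr8:3500462-3500491 (plus strand): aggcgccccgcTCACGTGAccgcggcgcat
The first base of the palindrome lies at -99 from the RefSeq start in Ctsd, at -228 and -195 in Gla and at -46 in Mcoln1. In Ctsa it lies at -13 and 5 from a RefSeq start inside the gene. The Ctsa window at the outer start held no CACGTG.

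Lamp1 held 4 copies of the core within its 250 upstream bases, and the run is shown whole because the copies lie close together next to the start, with each core in capitals:
Lamp1, chr8:13158911-13159160 (plus strand): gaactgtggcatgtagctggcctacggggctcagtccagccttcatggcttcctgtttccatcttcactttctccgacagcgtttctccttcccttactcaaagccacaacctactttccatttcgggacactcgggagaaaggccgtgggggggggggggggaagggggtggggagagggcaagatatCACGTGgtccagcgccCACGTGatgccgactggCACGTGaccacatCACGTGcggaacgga
They begin at -61, -45, -28 and -15 from the start. Glb1, Gaa and Naglu each held 1 core, at -48, -140 and -73, and give a view of the flanks in genes without the longer palindrome:
Glb1, chr9:114401018-114401047 (plus strand): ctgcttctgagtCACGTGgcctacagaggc
Gaa, chr11:119267811-119267840 (plus strand): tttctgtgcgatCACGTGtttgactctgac
Naglu, chr11:101070009-101070038 (plus strand): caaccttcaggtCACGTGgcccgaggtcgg
The other genes with the core were Arsa, Ctsf, Ctsl and Lgmn. In Lgmn it stood only in the window of a start inside the gene, and the window at the outer start held none. By role, the core stood in 5 of 11 proteases with a window, 5 of 13 glycosidases and sulfatases, 0 of 5 lipid genes, 2 of 5 membrane proteins and 0 of 2 TFEB family genes. A match describes letters and is not a bound site, and its absence says only that these letters are not in the window.

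Levels per length of transcript, as CPM divided by the deposited gene length in kilobases (RPKM, mean of all 12 libraries), differed widely among the 40 genes. Ctsd, the main aspartic protease, stood highest at 556 RPKM, followed by the membrane glycoprotein Lamp1 at 522, Psap, the precursor of the saposins that present sphingolipids to their hydrolases, at 429, and the tetraspanin Cd63 at 390. The cysteine proteases Ctsl and Ctsb followed at 264 and 162 RPKM, with the acid ceramidase Asah1 between them at 236. At the low end Ctsc stood at 6.87, Ctso at 3.32, Tfeb at 1.89 and Ctss at 0.0562 RPKM. In share of all reads, the 40 genes took 0.861 to 0.895% with WM-2474 and 0.98 to 1.03% with WM-8014 at 96 h. At 240 h they took 0.863 to 0.909% and 1.02 to 1.05%, so the groups did not overlap at either time. Sums of TMM-scaled CPM changed more with time than these raw shares. Under WM-2474 the sum was 8100 to 8430 CPM at 96 h and 9023 to 9379 CPM at 240 h. Under WM-8014 it was 9338 to 9812 and 11010 to 11240 CPM. Changes with time given below rest on the scaled values.

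**Figure D1:**
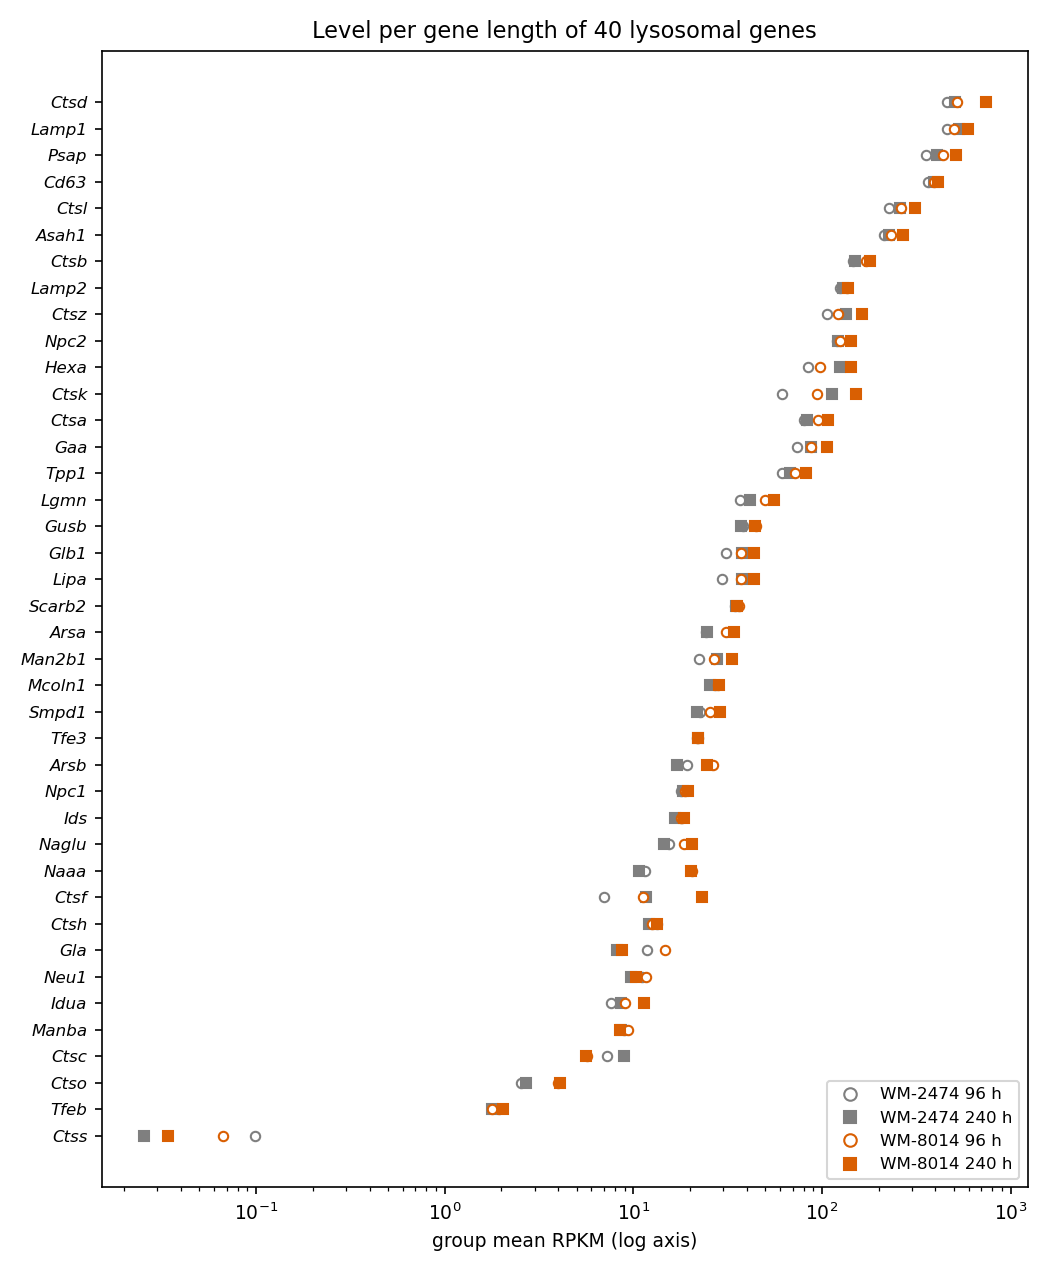
Level of each of the 40 genes as group mean RPKM (log axis), with genes ordered by level and one mark per group. Ctsd, Lamp1 and Psap lie at the top, and Ctss lies far below the other 39.

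After 96 h, 28 of the 39 tested genes were higher with WM-8014 than with WM-2474, and none passed as lower. Among all 14136 genes tested, 22.8% passed in either direction, 10.9% higher and 11.8% lower. The median log2 fold change was 0.21 over the lysosomal genes and 0 over all genes, so single changes were small, from -0.34 (Ctsc) to 0.86 (Naaa). The WM-8014 libraries lay wholly above the WM-2474 libraries for 30 genes and below them for 1, against 18.1% above and 19.9% below among all genes tested. The count of 0 lower genes is from edgeR; 1 gene, Ctsc, was lower at an unadjusted p under 0.05, DESeq2 called 1 and limma-voom 0. Without the 2 WM-2474 libraries that stood apart, which leaves 1 library assumed to vary like the other groups, 13 genes passed as higher, and 5.93% of all genes then tested passed in either direction.

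After 240 h, 28 genes were higher and 1 lower, where 42.6% of all genes passed, 21.2% higher and 21.4% lower. The median log2 fold change was 0.25 against 0.005 over all genes, and the range ran from -0.68 (Ctsc) to 0.97 (Ctsf). Both comparisons use different libraries, but they share a fit and the culture numbers. The same 25 genes were higher in both. The share of all genes higher at both times was not counted, so 25 has no background beside it. Gla, Lamp2 and Cd63 passed only at 96 h, and Ids, Npc2 and Mcoln1 only at 240 h. Ctsh, Manba, Neu1, Npc1, Scarb2, Tfeb and Tfe3 passed at neither time. A Benjamini-Hochberg adjusted p under 0.05 from edgeR's quasi-likelihood test across all genes was the threshold throughout.

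**Figure D2:**
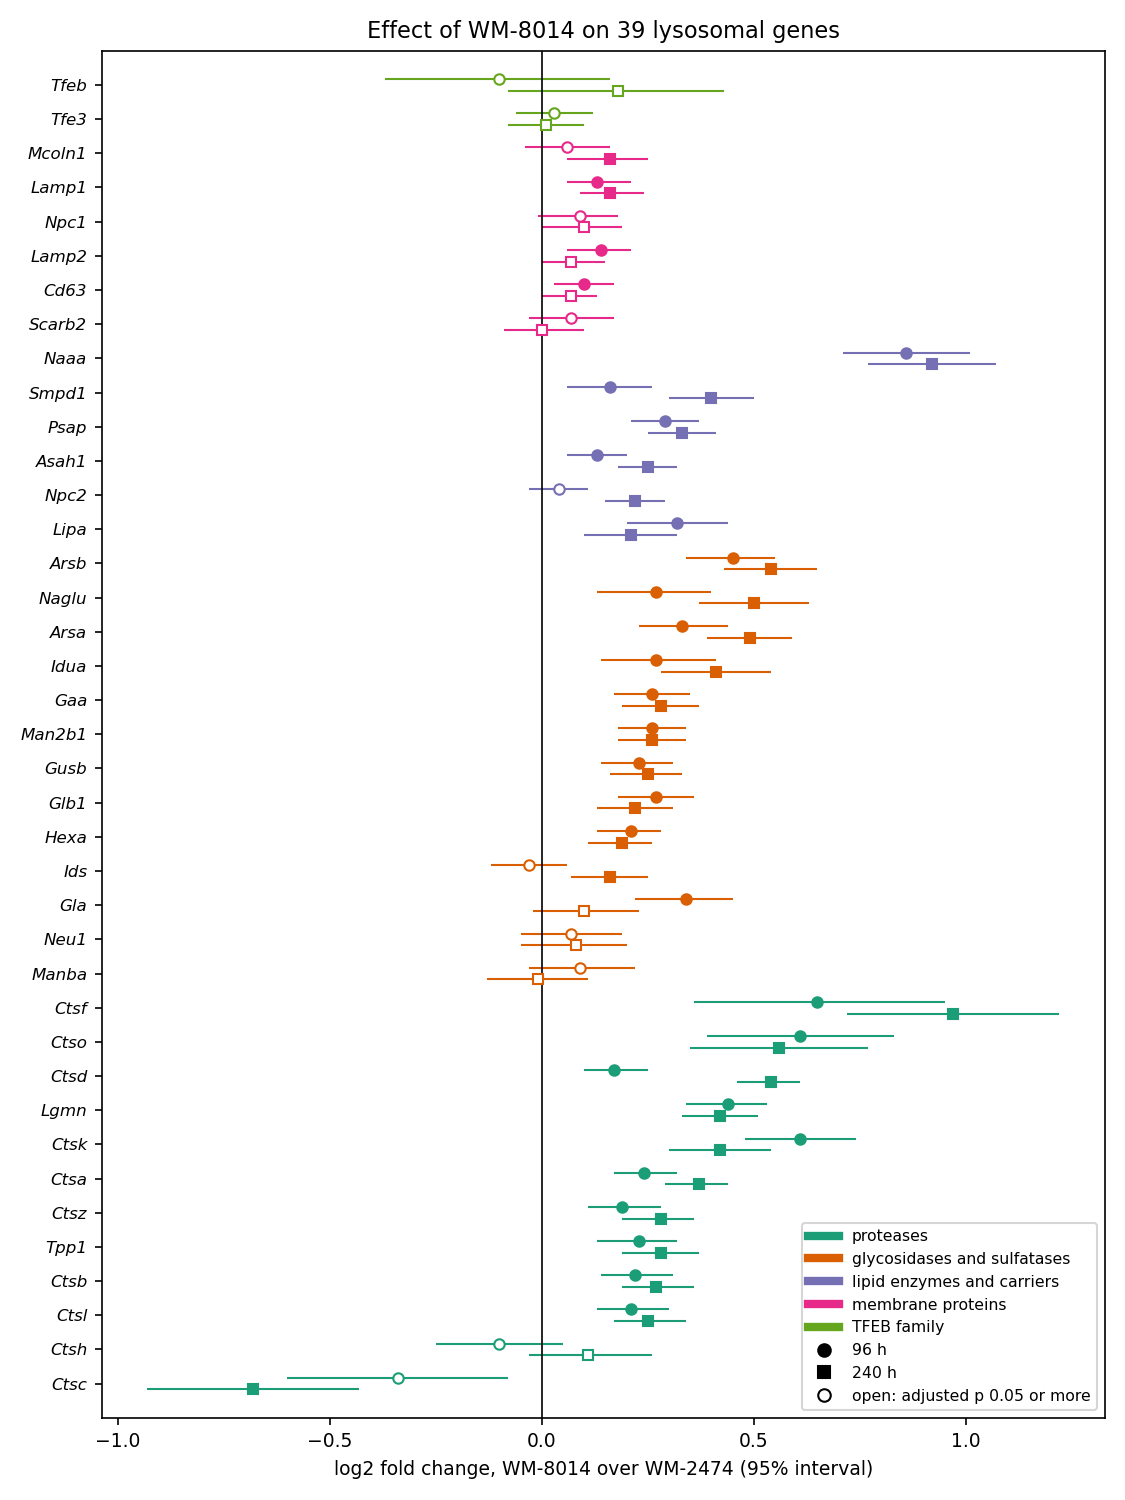
Log2 fold change of WM-8014 over WM-2474 with its 95% interval for the 39 tested genes at 96 and 240 h, coloured by role; open marks did not pass. Most intervals lie to the right of 0 at both times, Naaa and Ctsf lie farthest right at 240 h, and Ctsc lies farthest left.

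Of the 12 tested proteases, 10 were higher at 96 h (median log2 fold change 0.23), and at 240 h 10 were higher and 1 lower (median 0.32). Ctsd (Entrez 13033, chr7:142375910-142387827) stood at 912, 917 and 870 CPM with WM-2474 and at 1050, 997 and 989 CPM with WM-8014 after 96 h. After 240 h it stood at 1020, 987 and 973 CPM against 1430, 1420 and 1470 CPM. Every WM-8014 library was above every WM-2474 library of its time, and the gap was wider at the later time. On the log2 scale Ctsd rose by 0.17 at 96 h (SE 0.0356, adjusted p = 0.0015) and by 0.54 at 240 h (SE 0.0355, adjusted p = 1.38e-10). Without the 2 libraries that stood apart, the 96 h value was 0.15 (adjusted p = 0.112).

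Ctsk (Entrez 13038, chr3:95499210-95509387), a collagen-degrading cysteine protease best known from osteoclasts, stood at 95.8, 87.5 and 90.8 CPM with WM-2474 and 144, 130 and 143 CPM with WM-8014 after 96 h. Its values after 240 h were 173, 161 and 168 against 217, 208 and 245 CPM. The groups were apart at both times, and the WM-2474 libraries at 240 h all exceeded the WM-8014 libraries at 96 h. The compound difference was 0.61 (SE 0.0599, adjusted p = 5.67e-06) and then 0.42 (SE 0.0564, adjusted p = 1.7e-05) on the log2 scale. The 4 osteoclast markers read beside it summed to between 0.506 and 1.18 CPM in all libraries.

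Lgmn (Entrez 19141, chr12:102394082-102439728), the asparaginyl endopeptidase legumain that processes other cathepsins, had 71.6, 68.4 and 67.3 CPM against 98.8, 90.8 and 90.2 CPM at 96 h. At 240 h the values were 79.9, 76.3 and 78.9 against 102, 110 and 101 CPM. The WM-8014 libraries were above all WM-2474 libraries of either time. Lgmn rose by 0.44 (SE 0.0463, adjusted p = 1.63e-06) and by 0.42 (SE 0.0447, adjusted p = 1.5e-07) on the log2 scale.

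Ctsf (Entrez 56464, chr19:4855165-4860918), a cysteine protease expressed at a low level here, had the highest fold change of the set at 240 h. Its values were 10.1, 16.3 and 14.9 against 24.5, 20.1 and 22.2 CPM at 96 h and 25.8, 21.4 and 22.4 against 45.3, 42.1 and 49.3 CPM at 240 h. Culture 5 was the lowest of the WM-2474 libraries at 96 h and the highest at 240 h, and no WM-8014 library fell within the WM-2474 range of its time. The log2 fold changes were 0.65 (SE 0.136, adjusted p = 0.0046) and 0.97 (SE 0.115, adjusted p = 2.03e-05). With culture 7 left out of every group the 96 h value was 0.73 (adjusted p = 0.0797).

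Ctsa (Entrez 19025, chr2:164832872-164841032) is a carboxypeptidase that also shields β-galactosidase and neuraminidase 1 in a complex. It stood at 291, 306 and 293 against 359, 353 and 341 CPM at 96 h and at 321, 299 and 300 against 391, 392 and 403 CPM at 240 h. The groups did not overlap, and the rises were 0.24 (SE 0.0359, adjusted p = 6.4e-05) and 0.37 (SE 0.0356, adjusted p = 3.55e-08) on the log2 scale. At 240 h its partners in that complex stood at 0.22 for Glb1, which passed, and at 0.08 for Neu1, which did not (adjusted p = 0.31).

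The remaining proteases that rose did so by 0.19 to 0.61 on the log2 scale at 96 h and by 0.25 to 0.56 at 240 h. Among these, Ctso changed most, from 8.78 ± 0.97 to 13.8 ± 1.1 CPM at 96 h (0.61, adjusted p = 0.000268) and from 9.32 ± 0.18 to 14.1 ± 1.7 CPM at 240 h (0.56, adjusted p = 0.000125). The abundant endopeptidase Ctsb had 724, 700 and 674 against 866, 800 and 782 CPM at 96 h and 723, 704 and 689 against 860, 871 and 827 CPM at 240 h. Ctsl, its relative, had 469, 440 and 429 against 547, 503 and 498 CPM and then 517, 510 and 507 against 628, 611 and 592 CPM. Both were apart between the compounds at each time, with log2 fold changes of 0.22 and 0.27 for Ctsb and 0.21 and 0.25 for Ctsl. At 96 h the carboxypeptidase Ctsz went from 147 ± 6.7 to 168 ± 10 CPM and the tripeptidyl peptidase Tpp1 from 215 ± 3 to 251 ± 11 CPM. Without the 2 libraries that stood apart, Ctsb (0.17, adjusted p = 0.095), Ctsl (0.14, adjusted p = 0.179) and Tpp1 (0.21, adjusted p = 0.101) no longer passed at 96 h. Ctsz did not pass with culture 5 left out of every group (0.14, adjusted p = 0.0871). Ctsh, an aminopeptidase, was at 21.7 ± 1.8 against 20.4 ± 0.37 CPM at 96 h and at 19.7 ± 0.72 against 21.6 ± 1.5 CPM at 240 h (log2 fold change 0.11, 95% interval -0.03 to 0.26).

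Ctsc (Entrez 13032, chr7:88278024-88315861), the dipeptidyl peptidase that activates granule serine proteases of leukocytes, went the other way. With WM-2474 it had 16.7, 20.7 and 16.6 CPM at 96 h and 19, 25.5 and 21.7 CPM at 240 h. With WM-8014 it had 12.8, 12.7 and 16.6 CPM and then 13.8, 13.8 and 13.9 CPM. The WM-8014 libraries were the lower ones at both times, by a narrow margin at 96 h, where the culture 7 libraries nearly met. Ctsc fell by 0.68 on the log2 scale at 240 h (SE 0.118, adjusted p = 0.000188). At 96 h it was at -0.34 (SE 0.124, adjusted p = 0.06), at -0.33 with the culture number as a block (adjusted p = 0.0315), and at -0.48 without the culture 7 library of WM-8014 (adjusted p = 0.0132). It passed in 6 of 17 alternatives, which ranged from -0.56 to -0.18 (adjusted p 0.0132 to 0.473).

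Enzymes that remove sugars or sulfate from glycans and glycolipids were higher in 10 of 13 cases at each time, with medians of 0.26 and 0.25. Arsb (Entrez 11881, chr13:93771679-93943016), the sulfatase for dermatan and chondroitin sulfate, had 77.1, 75.8 and 77.4 against 113, 95.7 and 106 CPM at 96 h. At 240 h it had 71.7, 64.8 and 66.7 against 101, 97.1 and 97.3 CPM. All WM-8014 libraries were above all WM-2474 libraries whatever the time. Its log2 fold changes were 0.45 (SE 0.0511, adjusted p = 3.98e-06) and 0.54 (SE 0.0509, adjusted p = 2.34e-08), the highest of this class at both times.

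Arsa (Entrez 11883, chr15:89472476-89477424), which desulfates myelin-type sulfatides, had 81.3, 89.3 and 85.3 against 111, 105 and 107 CPM at 96 h and 89.8, 79.8 and 87.3 against 118, 116 and 127 CPM at 240 h. The WM-2474 libraries kept one level over time and the WM-8014 libraries lay above it. Arsa rose by 0.33 (SE 0.0486, adjusted p = 5.4e-05) and 0.49 (SE 0.0476, adjusted p = 3.63e-08). Naglu, an exoenzyme of heparan sulfate breakdown, rose from 38.2 ± 0.51 to 46 ± 4.8 CPM at 96 h (0.27, adjusted p = 0.0053) and from 36 ± 1.9 to 51.1 ± 2.9 CPM at 240 h (0.5, adjusted p = 1.69e-06). Without culture 6 in every group its 96 h value was 0.19 (adjusted p = 0.089), and without the 2 libraries that stood apart 0.29 (adjusted p = 0.126).

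Glb1 (Entrez 12091, chr9:114401078-114474379), the β-galactosidase used as a stain for senescent cells, had 76.6, 69.7 and 71.7 against 93, 82.9 and 86.2 CPM at 96 h. Its values at 240 h were 89.3, 88.2 and 86.8 against 103, 103 and 103 CPM. The groups were apart at each time, while the WM-8014 libraries at 96 h lay on both sides of the WM-2474 libraries at 240 h. Glb1 rose by 0.27 (SE 0.0452, adjusted p = 0.000214) and by 0.22 (SE 0.0433, adjusted p = 0.000247), and by 0.19 (adjusted p = 0.105, not passing) at 96 h without the 2 libraries that stood apart. Its exons overlap those of Tmppe on the same strand, which had 5425 reads against 20327 for Glb1, so its count is uncertain.

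Gaa, which releases glucose from glycogen, had 277, 285 and 274 against 361, 322 and 318 CPM at 96 h and 344, 323 and 329 against 399, 390 and 420 CPM at 240 h. Its groups were apart at each time (0.26 and 0.28). Man2b1, an α-mannosidase, went from 96.3 ± 0.97 to 116 ± 2.5 CPM and from 120 ± 5.2 to 144 ± 4.4 CPM. The β-glucuronidase Gusb went from 93.6 ± 2.4 to 109 ± 4.8 CPM at 96 h and from 92 ± 0.43 to 109 ± 1.8 CPM at 240 h. Hexa, the α subunit of β-hexosaminidase, had 163, 153 and 157 against 183, 180 and 182 CPM at 96 h and 232, 228 and 237 against 256, 259 and 279 CPM at 240 h. The compounds were apart at each time (0.21 and 0.19), and both groups at 240 h lay above both at 96 h. Idua, which removes iduronic acid from heparan and dermatan sulfate, rose by 0.27 at 96 h and by 0.41 at 240 h, though its exons overlap Dgkq, which had 7952 reads against 7144. Gusb (0.21, adjusted p = 0.051), Hexa (0.15, adjusted p = 0.127) and Idua (0.2, adjusted p = 0.307) did not pass at 96 h when the 2 libraries that stood apart were left out. Ids, the sulfatase that acts before Idua, was at 90.5 ± 0.46 against 88.4 ± 4 CPM at 96 h and rose from 82.7 ± 3 to 91.9 ± 3.9 CPM at 240 h (0.16, adjusted p = 0.00553). Ids did not pass without the culture 6 library of WM-8014 at 240 h (0.12, adjusted p = 0.06). Manba and Neu1 passed at neither time, with 95% intervals at 240 h of -0.13 to 0.11 and -0.05 to 0.2.

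Gla (Entrez 11605, chrX:134588169-134601005), the α-galactosidase A that degrades globotriaosylceramide, had 37.9, 34.7 and 34.6 against 43.6, 45.2 and 45.9 CPM at 96 h. At 240 h its values were 25.9, 24.6 and 23.5 against 25.4, 27.1 and 26.5 CPM. The groups were apart at 96 h and overlapped at 240 h, when all 6 libraries were below the 96 h libraries. It rose by 0.34 (SE 0.0551, adjusted p = 0.000163) at 96 h and was at 0.1 (95% interval -0.02 to 0.23, adjusted p = 0.168) at 240 h. Without the 2 libraries that stood apart the 96 h value was 0.24 (adjusted p = 0.101).

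Of the 6 lipid enzymes and carriers, 5 were higher at 96 h and 6 at 240 h, with medians of 0.23 and 0.29. Naaa (Entrez 67111, chr5:92257660-92278181), an amidase that hydrolyses N-acylethanolamines such as palmitoylethanolamide, changed most. It had 29.9, 27.9 and 25.6 against 49.9, 53.5 and 45 CPM at 96 h and 28, 24 and 25.8 against 51, 49.5 and 46.6 CPM at 240 h. Every WM-8014 library was at least 45 CPM and no WM-2474 library exceeded 29.9 CPM, with nearly the same levels at the 2 times. Naaa rose 1.81-fold (log2 0.86, SE 0.0719, adjusted p = 1.78e-07) and 1.89-fold (log2 0.92, SE 0.0706, adjusted p = 1.88e-09). Its RefSeq window held no CACGTG.

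Psap (Entrez 19156, chr10:60277628-60302600) had 1000, 985 and 947 against 1250, 1190 and 1130 CPM at 96 h and 1160, 1090 and 1090 against 1410, 1380 and 1400 CPM at 240 h. Its groups did not overlap, and it rose by 0.29 (SE 0.039, adjusted p = 2.54e-05) and 0.33 (SE 0.0389, adjusted p = 6.42e-07). Smpd1 (Entrez 20597, chr7:105554360-105558389), the acid sphingomyelinase, had 55.7, 52.5 and 55.5 against 63.6, 58.8 and 61.1 CPM at 96 h and 55.5, 52.2 and 50.4 against 71.4, 68.8 and 68.5 CPM at 240 h. The WM-8014 libraries lay above the others at both times, by more at 240 h. Smpd1 rose by 0.16 (SE 0.0478, adjusted p = 0.0177) and 0.4 (SE 0.0464, adjusted p = 4.82e-07). Its 96 h change passed neither without the culture 6 library of WM-2474 (0.14, adjusted p = 0.0776) nor without the culture 5 library of WM-8014 (0.13, adjusted p = 0.0961). Without the 2 libraries that stood apart that change was 0.13. The 96 h call was kept in 9 of 17 alternatives.

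Npc2 (Entrez 67963, chr12:84754559-84773112), the soluble carrier that hands cholesterol to Npc1, had 395, 392 and 389 against 408, 396 and 407 CPM at 96 h. At 240 h it had 413, 384 and 399 against 472, 455 and 469 CPM. The 96 h libraries all lay between 389 and 408 CPM, with the WM-8014 libraries narrowly above the others (396 or more against 395 or less). The gap was wider at 240 h. Npc2 was at 0.04 at 96 h (adjusted p = 0.391) and rose by 0.22 (SE 0.0331, adjusted p = 1.25e-05) at 240 h. Asah1 rose by 0.13 and 0.25, and Lipa, the acid lipase for cholesteryl esters and triglycerides, by 0.32 and 0.21. Asah1 did not pass at 96 h without the 2 libraries that stood apart (0.15, adjusted p = 0.0916), nor with culture 5 (0.12, adjusted p = 0.112) or culture 7 (0.1, adjusted p = 0.111) left out of every group.

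Among membrane proteins, 3 of 6 were higher at 96 h and 2 of 6 at 240 h, with medians of 0.09 and 0.08. Lamp1 (Entrez 16783, chr8:13159161-13175338), the abundant glycoprotein of the limiting membrane, had 1080, 1030 and 991 against 1160, 1130 and 1120 CPM at 96 h. At 240 h it had 1210, 1170 and 1210 against 1350, 1340 and 1330 CPM. No WM-8014 library reached down into the WM-2474 range of its time. It rose by 0.13 (SE 0.0349, adjusted p = 0.00804) and 0.16 (SE 0.0348, adjusted p = 0.00062), with 0.1 (adjusted p = 0.081) at 96 h without the culture 7 library of WM-2474 and 0.07 (adjusted p = 0.461) without both libraries that stood apart.

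Lamp2 (Entrez 16784, chrX:38399647-38456460), which serves in fusion with autophagosomes, had 514, 517 and 498 against 564, 542 and 577 CPM at 96 h and 555, 517 and 530 against 557, 547 and 581 CPM at 240 h. Its groups were apart at 96 h (0.14, adjusted p = 0.00858) and overlapped at 240 h (0.07, adjusted p = 0.111). The 96 h call was lost without the culture 7 library of WM-2474 (0.12, adjusted p = 0.0596) and without both libraries that stood apart (0.13, adjusted p = 0.207). Cd63 rose by 0.1 at 96 h (adjusted p = 0.0338), and that call was lost on leaving out any single library of the 6 (0.08 to 0.11). The call was kept in 4 of 17 alternatives, and the value was 0.1 without both libraries that stood apart. Mcoln1 (Entrez 94178, chr8:3500519-3515232), the calcium channel TRPML1 of the lysosome, had 57.1, 51.8 and 53.9 against 58.6, 54.7 and 56.3 CPM at 96 h and 51.2, 50.7 and 51.5 against 54.5, 58.6 and 57.3 CPM at 240 h. Its groups overlapped at 96 h (0.06, adjusted p = 0.374) and were apart at 240 h (0.16, adjusted p = 0.00869), with 0.13 (adjusted p = 0.0608) when the culture 6 library of WM-8014 was left out. Scarb2, the receptor that carries β-glucocerebrosidase to the lysosome, passed at neither time and was at 0 (95% interval -0.09 to 0.1) at 240 h. The sterol transporter Npc1 had 94.7, 93.4 and 90.6 against 101, 100 and 94.3 CPM at 96 h and 97.3, 96.3 and 91.7 against 95.6, 101 and 107 CPM at 240 h. Its groups overlapped at both times (0.09 and 0.1), and its exons overlap Rmc1, which had 9348 reads against 22643. Npc1 passed at 240 h without the culture 5 library of WM-8014 (0.13, adjusted p = 0.0334).

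The transcription factors that act on this network did not pass in any comparison, by edgeR, DESeq2 or limma-voom, or at an unadjusted p under 0.05. Tfeb (Entrez 21425, chr17:47737037-47792416) had 5.38, 5.79 and 5.31 against 5.71, 4.5 and 5.01 CPM at 96 h. At 240 h it had 5.36, 5.02 and 4.7 against 5.85, 5.32 and 6.06 CPM. The groups overlapped at both times, and the 95% intervals of the log2 fold change were -0.37 to 0.16 and -0.08 to 0.43. Tfe3 (Entrez 209446, chrX:7762530-7775202) was more abundant, with 74.7, 69 and 70.2 against 72.7, 72.4 and 72.3 CPM at 96 h and 71.5, 72.7 and 71.4 against 67.2, 74.1 and 74.2 CPM at 240 h. These groups overlapped too, with 95% intervals of -0.06 to 0.12 and -0.08 to 0.1. These are transcript levels, and the factors are known to be controlled mainly by phosphorylation and their place in the cell, which was not measured. Of the 12 genes with CACGTG in a window, 11 were higher at each time (medians 0.26 and 0.32), and of 23 tested genes with a window that lacks it, 15 were (medians 0.19 and 0.22); no test was made of that difference.

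**Figure D3:**
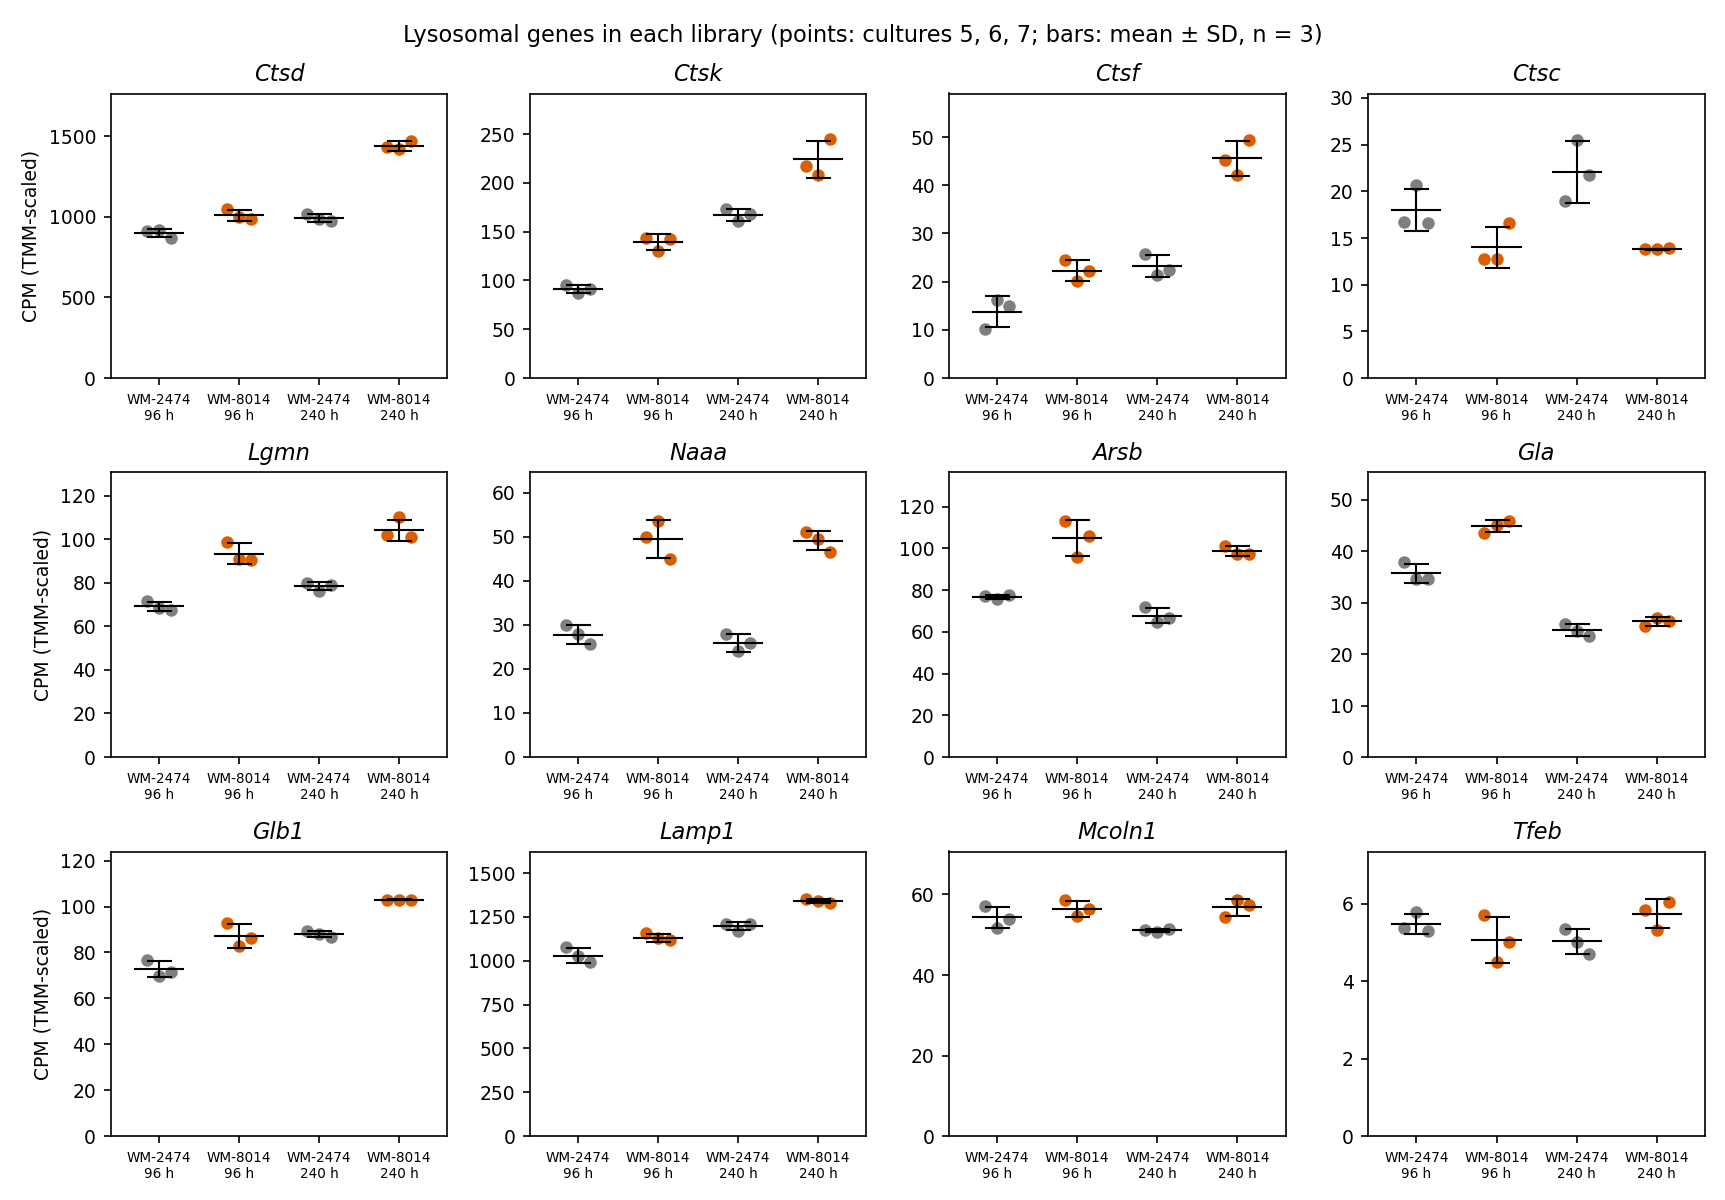
CPM of 12 lysosomal genes in every library (points), with group mean and SD (bars), by compound and time; each panel has its own linear axis. Naaa, Arsb and Lgmn separate by compound at both times, Ctsc is lower with WM-8014, Gla falls with time under both compounds and the Tfeb groups overlap.

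Whether the effect of WM-8014 changed between 96 and 240 h was tested as an interaction, which uses all 12 libraries. Ctsd, Smpd1 and Npc2 passed, each with a greater effect at 240 h, and none passed with a smaller one. That is 7.69% of the 39 genes, against 10.7% of all genes tested (5.15% greater, 5.53% smaller). The difference of the log2 fold changes was 0.36 for Ctsd (SE 0.0502, adjusted p = 4.83e-05), 0.24 for Smpd1 (SE 0.0666, adjusted p = 0.0234) and 0.18 for Npc2 (SE 0.047, adjusted p = 0.0154). All 3 cultures gave a difference above 0 for each of them. The count was 3 by DESeq2 and 4 by limma-voom and 9 at an unadjusted p under 0.05; for smaller effects it was 0 by both tools, with Ctsk and Gla below 0.05 unadjusted. The Smpd1 call was lost on leaving out any of 6 single libraries (0.21 to 0.23): cultures 5 or 7 of WM-2474 at 96 h, 6 or 7 of WM-2474 at 240 h, 6 of WM-8014 at 96 h, or 5 of WM-8014 at 240 h. The Npc2 call was lost on leaving out the culture 6 library of WM-2474 at 240 h (0.15, adjusted p = 0.053). Smpd1 was at 0.26 (adjusted p = 0.114) and Npc2 at 0.19 (adjusted p = 0.107) without the 2 libraries that stood apart.

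Other differences between the times did not pass. The next highest estimates were 0.32 for Ctsf (95% interval -0.07 to 0.71, adjusted p = 0.313) and 0.28 for Tfeb (-0.09 to 0.65, adjusted p = 0.368), and the lowest were -0.34 for Ctsc (-0.71 to 0.02, adjusted p = 0.251), -0.24 for Gla (-0.4 to -0.07, adjusted p = 0.0666) and -0.19 for Ctsk (-0.36 to -0.01, adjusted p = 0.171). Single libraries decided some of these: Ctsf was at 0.43 (adjusted p = 0.0384) and Gla at -0.27 (adjusted p = 0.0398) without the culture 5 library of WM-2474 at 96 h, and Ctsk at -0.26 (adjusted p = 0.0112) without the culture 7 library of WM-8014 at 240 h. Of the genes called as higher at 1 time only, Gla and 4 others did not pass this test: Ids (0.19, adjusted p = 0.052), Mcoln1 (0.1, adjusted p = 0.429), Lamp2 (-0.07, adjusted p = 0.492) and Cd63 (-0.04, adjusted p = 0.721). Of these, Ids passed in 6 of 22 alternatives: without any one of 3 single libraries (0.21 to 0.22), with the culture number as a block (0.2, adjusted p = 0.0356), with DESeq2 size factors (0.2, adjusted p = 0.0428) and by limma-voom (0.19, adjusted p = 0.0479).

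The change with time was read under each compound, in comparisons that share their libraries with those above. Under WM-2474, 18 of 39 genes were higher at 240 h than at 96 h and 4 lower, which is 56.4% against 38.9% of all genes (19.8% higher, 19.1% lower). Under WM-8014, 20 were higher and 2 lower, again 56.4%, a share close to the 49.7% of all genes (24.8% higher, 25% lower). Without the 2 WM-2474 libraries that stood apart, 9 were higher and 1 lower under WM-2474, where 18.5% of all genes passed. The lower count under WM-2474 was 2 without the culture 7 library at 96 h or the culture 6 library at 240 h. Under WM-8014 it was 4 without the culture 6 library at 96 h and 1 without the culture 6 library at 240 h.

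Of the 12 tested proteases, 8 rose with time under each compound. Ctsk rose by 0.88 (SE 0.0588, adjusted p = 6.65e-09) under WM-2474 and by 0.69 (SE 0.0577, adjusted p = 4.85e-08) under WM-8014, and Ctsf by 0.71 (SE 0.13, adjusted p = 0.000847) and 1.03 (SE 0.121, adjusted p = 1.3e-05). Ctsd rose by 0.14 and 0.51, the first value being 0.12 (adjusted p = 0.13) without the 2 libraries that stood apart. Hexa rose from 158 ± 5.1 to 232 ± 4.3 CPM under WM-2474 (0.56, adjusted p = 1.28e-10) and from 182 ± 1.9 to 264 ± 13 CPM under WM-8014 (0.54, adjusted p = 9.29e-11). Glycosidases and sulfatases split, with 5 higher and 4 lower under WM-2474 and 6 higher and 2 lower under WM-8014.

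In the reported fit the genes called as falling with time were all glycosidases and sulfatases. In 1 alternative each under WM-2474, 2 genes of other classes also passed as lower. These were Ctsh without the culture 5 library at 96 h (-0.19, adjusted p = 0.043) and Naaa with thinning to the smallest total (-0.32, adjusted p = 0.00634). Gla fell by 0.52 (SE 0.0567, adjusted p = 2.01e-07) under WM-2474 and by 0.76 (SE 0.0574, adjusted p = 3.76e-10) under WM-8014. Neu1, a sialidase, fell from 42.9 ± 0.62 to 37.4 ± 3.5 CPM under WM-2474 (-0.21, adjusted p = 0.00792) and from 45.2 ± 1.8 to 39.6 ± 1.2 CPM under WM-8014 (-0.2, adjusted p = 0.00978). Neu1 did not pass under WM-2474 without the culture 7 library at 96 h (-0.19, adjusted p = 0.052) or the culture 6 library at 240 h (-0.13, adjusted p = 0.0819), nor under WM-8014 without the culture 6 library at 240 h (-0.17, adjusted p = 0.0534). Arsb fell by 0.18 under WM-2474 (adjusted p = 0.00716), and Manba was at -0.13 under WM-8014 (adjusted p = 0.0904), where it passed without the culture 6 library at 96 h (-0.17, adjusted p = 0.0359). Ids fell by 0.13 under WM-2474 (adjusted p = 0.0193) and lost that call without the culture 7 library at 96 h (-0.13, adjusted p = 0.0561), or the culture 6 (-0.11, adjusted p = 0.101) or culture 7 library at 240 h (-0.13, adjusted p = 0.0536). Without the 2 libraries that stood apart, Neu1 (-0.19), Arsb (-0.19) and Ids (-0.14) did not pass under WM-2474.

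**Figure D4:**
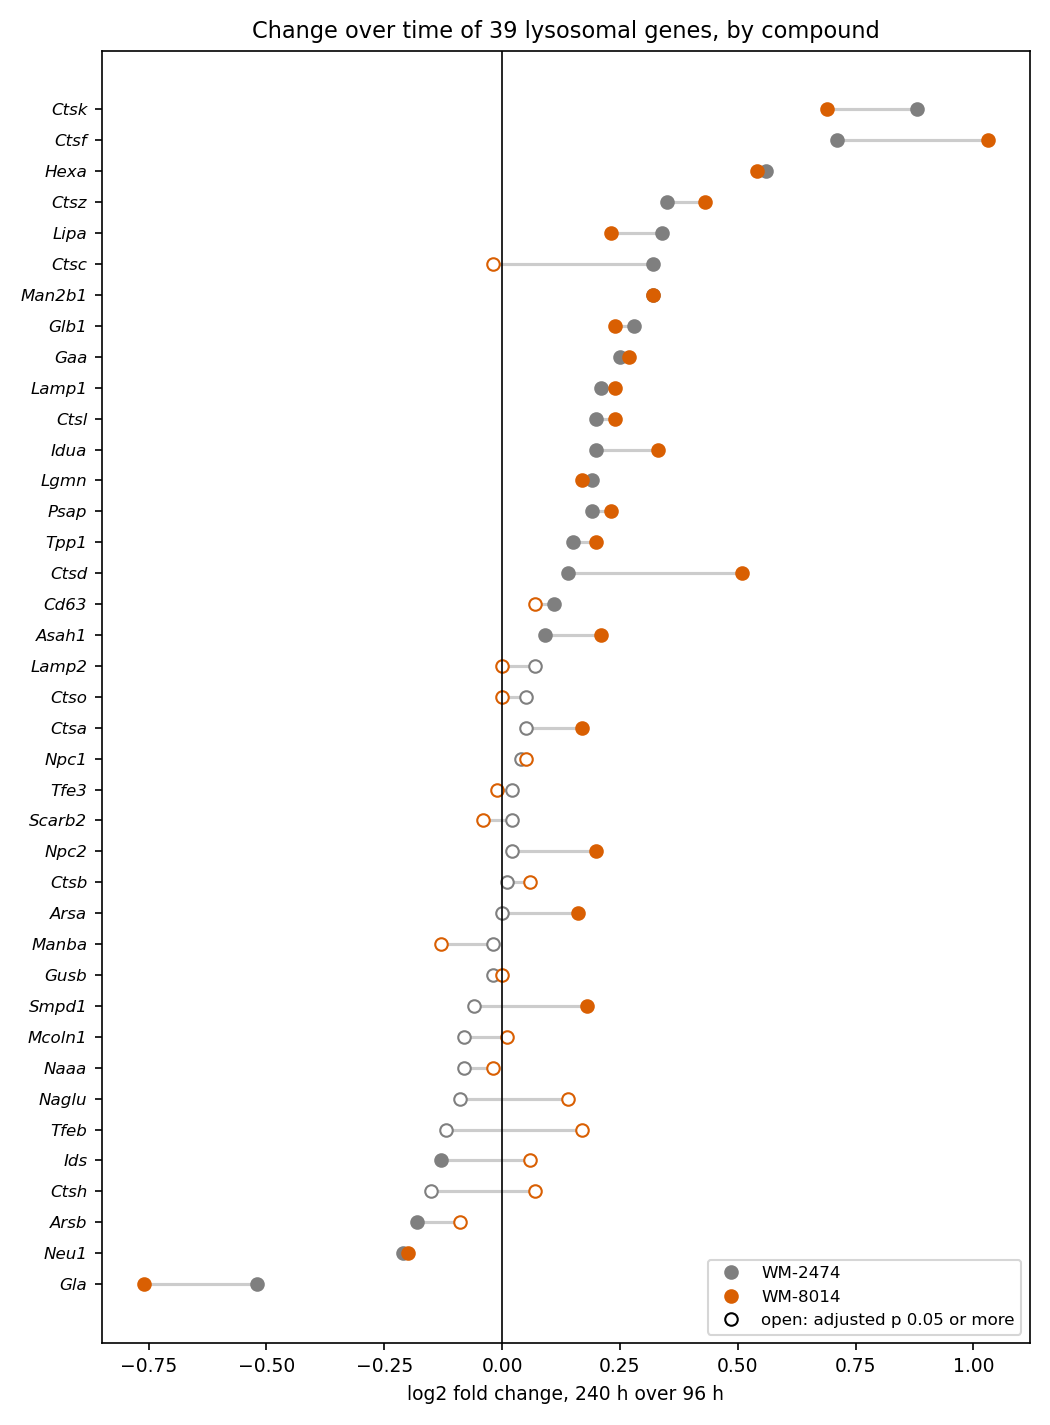
Log2 fold change of 240 h over 96 h for the 39 tested genes, under WM-2474 and under WM-8014. Ctsk, Ctsf and Hexa lie farthest to the right under both compounds and Gla farthest to the left.

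Other genes of the lysosomal pathway were read from 7 lists with no gene of the set; over all genes tested, 10.9% were higher at 96 h and 21.2% at 240 h. Among 24 other hydrolases and activators, 13 were higher with WM-8014 at 96 h and 18 at 240 h. Man2b2, an α-mannosidase, had 95.1, 96 and 95.2 against 126, 120 and 118 CPM at 96 h and 133, 123 and 125 against 185, 177 and 199 CPM at 240 h. Its groups were apart at each time, with log2 fold changes of 0.35 (adjusted p = 1.52e-05) and 0.56 (adjusted p = 1.23e-09). Of 16 subunits of the V-ATPase, the pump that acidifies the lysosome, 5 were higher at 96 h and 9 at 240 h. Atp6v0d1 rose by 0.15 and 0.25 and Atp6v0e by 0.12 and 0.4, the last from 86.8 ± 2 to 114 ± 4.4 CPM at 240 h (adjusted p = 8.43e-08), and Atp6v1f by 0.25 and 0.15, of which the 240 h change (adjusted p = 0.0426) passed in 4 of 16 alternatives. Of 17 other membrane proteins, 6 and 9 were higher, with the transporter Abca2 at 0.28 and 0.55 and the amino acid transporter Slc36a1 at 0.29 and 0.28. Tpcn1, an ion channel of endosomes and lysosomes, was at 0.07 (adjusted p = 0.335) and rose by 0.24 (adjusted p = 0.000127).

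Delivery and control genes were more mixed. A list of 7 held genes that tag or sort hydrolases by mannose 6-phosphate or related receptors, and also Sumf1, which does neither. In this list 2 genes were higher and 1 lower at 96 h, and 3 higher and 2 lower at 240 h. Sumf1 was among the higher genes at both times. Sumf1, which activates all sulfatases, rose from 78.7 ± 0.92 to 92.5 ± 5 CPM (0.23, adjusted p = 0.00048) and from 89.2 ± 2.2 to 124 ± 3.1 CPM (0.47, adjusted p = 7.52e-09). Gnptab, the enzyme that starts the mannose 6-phosphate tag, rose by 0.19 (adjusted p = 0.00184) and 0.1 (adjusted p = 0.0437), the latter in 4 of 16 alternatives. Igf2r, the large mannose 6-phosphate receptor, had 507, 519 and 503 against 517, 518 and 522 CPM at 96 h and 619, 600 and 611 against 465, 440 and 490 CPM at 240 h. Its groups overlapped at 96 h (0.03) and at 240 h the WM-8014 libraries were all lower (-0.39, adjusted p = 1.62e-08). Sort1, the sorting receptor sortilin, was named after its values were seen: it fell from 25.7 ± 2.6 to 19.5 ± 3.1 CPM (-0.42, adjusted p = 0.00401) and from 30.2 ± 1.6 to 15.3 ± 1 CPM (-0.97, adjusted p = 1.77e-07).

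Of 15 tested genes that control TFEB and mTORC1 at the lysosome, 3 were higher at each time, which at 240 h is no more than the share over all genes. Lamtor4 of the Ragulator complex was at 0.21 (adjusted p = 0.0415) and 0.39 (adjusted p = 0.000121), Lamtor2 of the same complex at 0.08 (adjusted p = 0.408) and 0.23 (adjusted p = 0.00457), and Flcn at 0.19 (adjusted p = 0.0144) and 0.12 (adjusted p = 0.0899). Of 14 autophagy genes of the TFEB network, 5 were higher at 96 h and 11 at 240 h. Gabarapl1 rose by 0.35 and 0.42 and Map1lc3a, which with it encodes proteins of the autophagosome membrane, by 0.19 and 0.42, and Wipi1 of the forming autophagosome rose by 0.21 and 0.35. Of 3 cathepsin inhibitors, 1 and 2 were higher: Cstb rose by 0.22 and 0.18, and Cst3, the secreted cystatin C, was at -0.04 and 0.1 without passing. Cst6 passed at 240 h at a mean under 1 CPM (0.513 ± 0.19 against 0.917 ± 0.3 CPM, adjusted p = 0.0387), a call kept in 5 of 16 alternatives. Apart from the mannose 6-phosphate list, 0 genes of these 6 lists passed as lower at either time by edgeR, DESeq2 or limma-voom, and 2, Atp6v0a1 and Atp6v0b, were lower at 96 h at an unadjusted p under 0.05. Among the other alternatives, Atp6v0a1 passed as lower at 96 h in 1 of 17 and Galc at 240 h in 1 of 16. In the reported fit Atp6v0a1 was higher at 240 h (0.28, adjusted p = 4.15e-06). Without the 2 libraries that stood apart, the higher counts at 96 h were 3 for other hydrolases, 0 for cathepsin inhibitors and 1 for each of the other 5 lists. At 96 h Man2b2, Abca2, Sumf1 and Gabarapl1 passed in all 17 alternatives, Atp6v0e in 5, Lamtor4 in 7, Flcn in 13, and Atp6v0d1, Atp6v1f, Slc36a1, Gnptab, Map1lc3a, Wipi1, Cstb and Sort1 in 15 or 16.

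**Figure D5:**
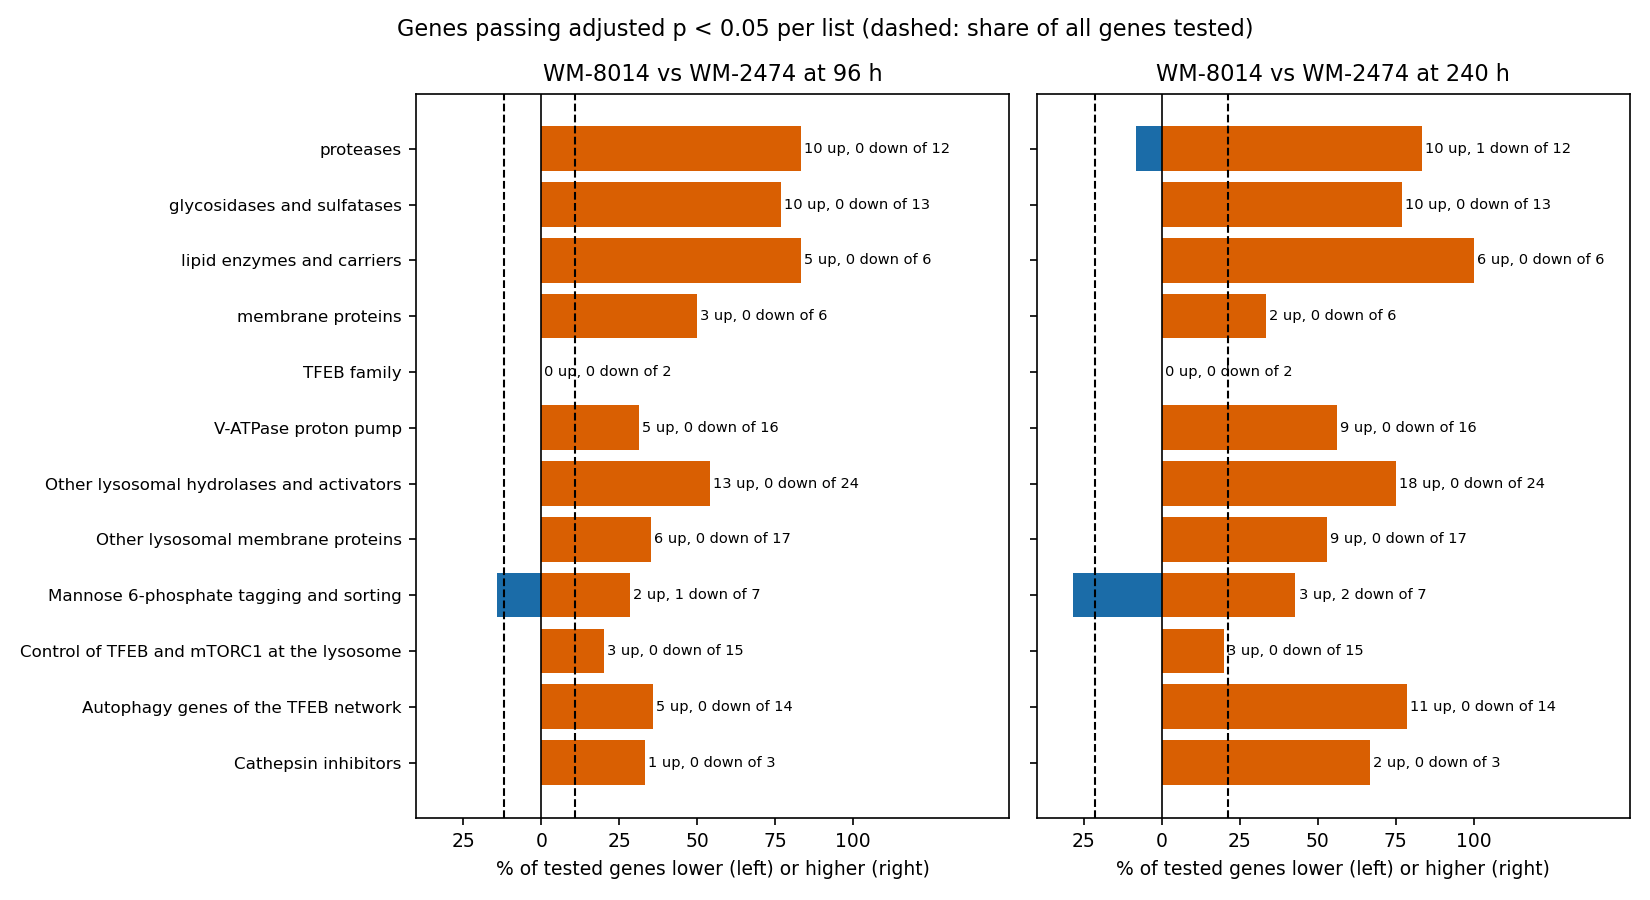
Share of tested genes higher or lower with WM-8014 at 96 and 240 h, in percent, for the role classes and the 7 pathway lists; dashed lines give the share over all 14136 genes. The protease, glycosidase, lipid and membrane protein bars stand above the dashed line at both times, the membrane protein bar being the shortest of these. The TFEB family has no bar.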

How the data were processed

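RNA was isolated with RNeasy columns and sequenced from TruSeq Stranded mRNA libraries, per the labels' protocols. The deposited values are whole read counts per gene. Per the submitters' processing notes, the authors used featureCounts and the mouse genome mm10. Aligner, annotation and strand setting: not given in the sources used here. The table also gives gene lengths, per the file headers, used for RPKM. Exons of 9 of the 40 genes overlap another counted gene, so their counts are uncertain if strand was not used; Glb1 overlaps one on its own strand and is uncertain either way.

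Of 27179 identifiers, 25275 matched a RefSeq symbol. Counts were analysed with edgeR 4.0.16 in R 4.3.3: filterByExpr by group (14136 genes left, with at least 99.93% of reads), TMM scaling, 1 mean per group over all 12 libraries and a two-sided quasi-likelihood F test (robust) with Benjamini-Hochberg adjustment over all genes. A standard error is the size of the log2 fold change over the square root of F. On simulated counts for the 96 h comparison (13970 genes), 55.1% of genes changed 1.25-fold and 88% of genes changed 1.5-fold were recovered, with a false share of 4.02%. The simulation gave every gene a spread of 5% and changed 49 or 50 genes at each fold. Far more genes passed in the data, and no fold below 1.25 was simulated. Recovery of the smaller changes reported here is therefore not known.

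The alternatives used DESeq2 1.42.0 and limma 3.58.1, no filter, thinning to 10147466 reads, the culture number as a block, and libraries left out. Deviations from the group mean were correlated across genes between same-numbered libraries of the 2 compounds. The values were 0.14, 0.15 and 0.16 at 96 h and 0.064, 0.24 and 0.048 at 240 h. Over all pairs of groups the mean was 0.11 for the same number and -0.055 for other numbers. The labels do not say that a number is 1 embryo. The reported fit therefore has no culture term, and the block is given as an alternative. Replicate pairs differed by more than sampling noise (chi-square per degree of freedom 2.1 to 7.13).

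Genes given in full were, in each role and compound comparison, the 2 with the smallest p, the 3 highest and 3 lowest of the interaction and of the changes over time, and a short list fixed by name. In each pathway list they were the 2 with the smallest p, of which 1 is not reported here. The members and lists were chosen with earlier results of these data known.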

Additional observations from a re-analysis of the deposited data

Results flagged for a closer look

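The effect of WM-8014 against WM-2474 differed between 96 and 240 h for 3 lysosomal genes by the interaction test of edgeR. The difference of log2 fold changes was 0.36 for Ctsd, from 0.17 at 96 h to 0.54 at 240 h, and Ctsd passed under all 22 alternatives (0.34 to 0.4, adjusted p 3.27e-10 to 0.00472). It was 0.24 for Smpd1, which passed under 13 of 22 (adjusted p 0.00878 to 0.208), and 0.18 for Npc2, which passed under 16 of 22 (adjusted p 0.00674 to 0.173).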

How the results depend on the processing

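Leaving out 1 library or 1 culture gave 21 to 27 higher and 0 to 1 lower genes at 96 h (28 and 0 as reported), and 26 to 29 higher and 1 to 1 lower at 240 h. It gave 1 to 4 greater and 0 to 1 smaller effects for the interaction, 13 to 17 higher and 2 to 5 lower for time under WM-2474, and 19 to 21 higher and 1 to 4 lower under WM-8014. With cultures 6 and 7 of the WM-2474 group at 96 h left out, the counts were 13 higher at 96 h, 1 greater in the interaction, and 9 higher and 1 lower for time under WM-2474. The lower count at 96 h was 1 under the DESeq2 test, the replicate block, thinning to the smallest total and a fit of only the groups compared, each time Ctsc. With the replicate block the interaction had 1 smaller effect (Ctsk, -0.19, adjusted p = 0.0331), and the pairing changed no other count by over 1.5 times. Thinning left 1 lower gene for time under WM-8014. Across alternatives, 127 calls were lost and 31 gained; no value that passed either way changed sign, and 137 of 3432 values changed sign with neither passing. All alternatives kept 11 of 28 calls at 96 h, 27 of 29 at 240 h, 1 of 3 for the interaction, 10 of 22 for time under WM-2474 and 19 of 22 under WM-8014. The alternatives for the pathway lists were added after seeing the data.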
